A study of Mus musculus with 3 samples.

Results

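The 38 genes described here are members of the 4 Hox clusters of the mouse: 10 of cluster A, 10 of cluster B, 9 of cluster C and 9 of cluster D. They were taken by name from a list and not by their values, although earlier results of these data were known. They are 38 of 39 Hox genes and of 23397 genes in the files. The remaining Hox gene, of cluster A, was not analysed here. RNA came from endothelial cells of embryoid bodies, the floating aggregates in which mouse embryonic stem cells differentiate. The cells were sorted at day 4.75 by surface markers (Tie2 and CD31 present, CD41 absent). There were 3 groups of 1 library each, all grown and sorted alike: wild type (WT), a knockout of Scl (SclKO; the gene is now called Tal1) and cells labelled Gata12KO, in which Gata1 and Gata2 were both targeted. All were cultured with LIF first and then in a medium with serum, transferrin, ascorbic acid and monothioglycerol. Neither the deleted segments nor the number of clones or sorts behind each library is stated in the labels.

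Hox genes encode homeodomain transcription factors that give cells their position along the body axis. Within a cluster the genes lie in the order of their paralogue numbers, low numbers at the 3′ end and high numbers at the 5′ end. Low numbers are in general switched on earlier and further forward in the embryo than high numbers. Several Hox factors also act in blood and vessel precursors, and Cdx factors are known activators of Hox genes in the mesoderm from which these cells form.

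On the mm9 build, the members of cluster A span chromosome 6 from 52112510 to 52210874 on the reverse strand. Those of cluster B span chromosome 11 from 96055675 to 96229567, those of cluster C chromosome 15 from 102751562 to 102867283 and those of cluster D chromosome 2 from 74506367 to 74603199, all on the forward strand. Levels are FPKM, the authors' fragment count scaled to transcript length and library size, so that genes can be compared per length. The deposited confidence bounds stand in parentheses or after "bounds" and cover counting error, not differences between cultures or sorts. For genes with several transcripts they can be wider than counting error. A value listed at 0 has bounds of 0 to 0, which leave counting error out. With 1 library per group there was no replicate check of any difference, and no p-value is given. "Higher" and "lower" therefore describe these 3 libraries.

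Promoters are shown for Hoxb1, Hoxb4 and Hoxb8, of the cluster with the highest levels, and for Hoxd1, which had the same order of levels over the 3 libraries as Hoxb1. Each run is the 250 bases before the RefSeq start on GRCm38.p6, 5′ to 3′ on the forward strand. The windows are chr11:96365508-96365757 for Hoxb1, chr11:96318017-96318266 for Hoxb4, chr11:96281655-96281904 for Hoxb8 and chr2:74762730-74762979 for Hoxd1. Capitals mark any match, on either strand, to 4 motifs. The letters that Cdx factors prefer were written as TTTATNG in this search. The site of the GATA family was AGATAA in the search, and the E-box of the kind that Scl binds with its partners was CAGATG there. The site of Hox proteins bound with Pbx was written as TGATNNAT here.
Hoxb1: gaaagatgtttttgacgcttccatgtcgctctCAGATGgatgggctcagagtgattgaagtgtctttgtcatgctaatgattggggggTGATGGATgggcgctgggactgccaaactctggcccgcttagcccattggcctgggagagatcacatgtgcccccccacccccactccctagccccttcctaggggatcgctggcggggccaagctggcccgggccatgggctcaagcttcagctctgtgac
Hoxb4: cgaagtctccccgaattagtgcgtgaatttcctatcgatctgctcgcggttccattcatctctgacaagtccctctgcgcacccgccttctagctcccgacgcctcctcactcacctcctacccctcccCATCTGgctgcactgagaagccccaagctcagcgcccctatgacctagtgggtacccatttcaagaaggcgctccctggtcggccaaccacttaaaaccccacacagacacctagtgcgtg
Hoxb8: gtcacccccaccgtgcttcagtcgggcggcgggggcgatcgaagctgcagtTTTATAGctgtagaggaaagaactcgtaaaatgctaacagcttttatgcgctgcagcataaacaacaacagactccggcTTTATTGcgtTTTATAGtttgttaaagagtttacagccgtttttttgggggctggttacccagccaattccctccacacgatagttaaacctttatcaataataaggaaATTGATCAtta
Hoxd1: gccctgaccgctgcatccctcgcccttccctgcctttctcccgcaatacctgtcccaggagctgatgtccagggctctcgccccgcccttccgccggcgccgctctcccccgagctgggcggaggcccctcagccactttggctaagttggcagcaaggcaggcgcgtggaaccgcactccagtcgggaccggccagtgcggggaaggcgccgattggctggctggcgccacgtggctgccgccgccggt
Hoxb1, which is known to maintain itself together with Pbx factors, held a match to the Hox and Pbx letters that begins 162 bases before the start and an E-box match at 218 bases. Hoxb4 held an E-box match at 121 bases. Hoxb8 held 3 matches to the Cdx letters, at 199, 120 and 110 bases, and a Hox and Pbx match at 11 bases. Hoxd1 held none of the 4 motifs in this window. Promoter windows were at hand for 22 members, in 24 windows. The Cdx letters occurred in 2 of these 24 and in 9.81% of 32851 promoters of the same length, the GATA letters in 0 and 9.99%, the E-box in 2 and 14.4%, and the Hox and Pbx letters in 4 and 7.68%. No motif overlapped another in the windows shown. A match is a description of the letters and says nothing of binding.

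The targeted genes were checked first. Tal1 had 51.0 FPKM in WT, 1.59 in SclKO and 38.7 in the library labelled Gata12KO. Gata1 had 4.64 FPKM in WT, was at 0 in SclKO and stood at 5.66 in the third library, and Gata2 had 12.0, 5.81 and 44.9. Values of whole transcripts would not show a deleted exon, but neither Gata gene was lower than WT there, so the third library is called "the library labelled Gata12KO" throughout. All 7 endothelial markers (Pecam1, Tek, Cdh5, Kdr, Tie1, Emcn and Esam) were above 1 FPKM in every library, with summed levels of 431, 203 and 516 FPKM in WT, SclKO and the library labelled Gata12KO. Blood transcripts were present in WT, with the embryonic globins Hbb-bh1 at 76.8 and Hba-x at 71.3 FPKM and Itga2b, the CD41 gene, at 22.8, while the pan-leukocyte gene Ptprc was listed at 0. Reads on annotated entries, as implied by the bounds, came to 16466460, 14608256 and 25039495, so that bounds at equal FPKM are narrowest in the library labelled Gata12KO.

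Hox expression in WT endothelium was mostly that of cluster B. The 38 members summed to 73.2 FPKM (bounds 70.7 to 75.6), of which cluster B gave 82.3%, cluster D 12.3%, cluster A 2.93% and cluster C 2.47%. Hoxb5, a central gene of cluster B, had the highest level, 20.5 FPKM (19.2 to 21.7). It was followed by Hoxb2 at 10.7 (9.77 to 11.7), Hoxb6 at 9.16 (8.15 to 10.2) and Hoxb4 at 8.61 (7.93 to 9.28), and these last 3 did not differ between neighbours beyond their bounds. Next came Hoxb3, Hoxd9, Hoxb8 and Hoxb7, at 3.79 to 2.83 FPKM, again with overlapping bounds between neighbours. Of all members, 11 reached 1 FPKM in WT, 22 lay above 0 and below 1, and 5 were listed at 0. In the 3 libraries together 15 members reached 1 FPKM at least once: 8 of cluster B, 5 of cluster D, 2 of cluster C and 0 of cluster A. The lowest of these, Hoxc9, peaked at 1.19 FPKM and the highest of the others, Hoxd10, at 0.909. Hoxc8 and Hoxc9 reached 1 FPKM in SclKO alone, and Hoxd3 and Hoxd4 in the library labelled Gata12KO alone. Passing the minimum thus fixed that those values exceed the ones in the other libraries. The median member had 0.292 FPKM in WT, 0.256 in SclKO and 0.199 in the library labelled Gata12KO, so the summed levels rest on a few genes.

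**Figure D1:**
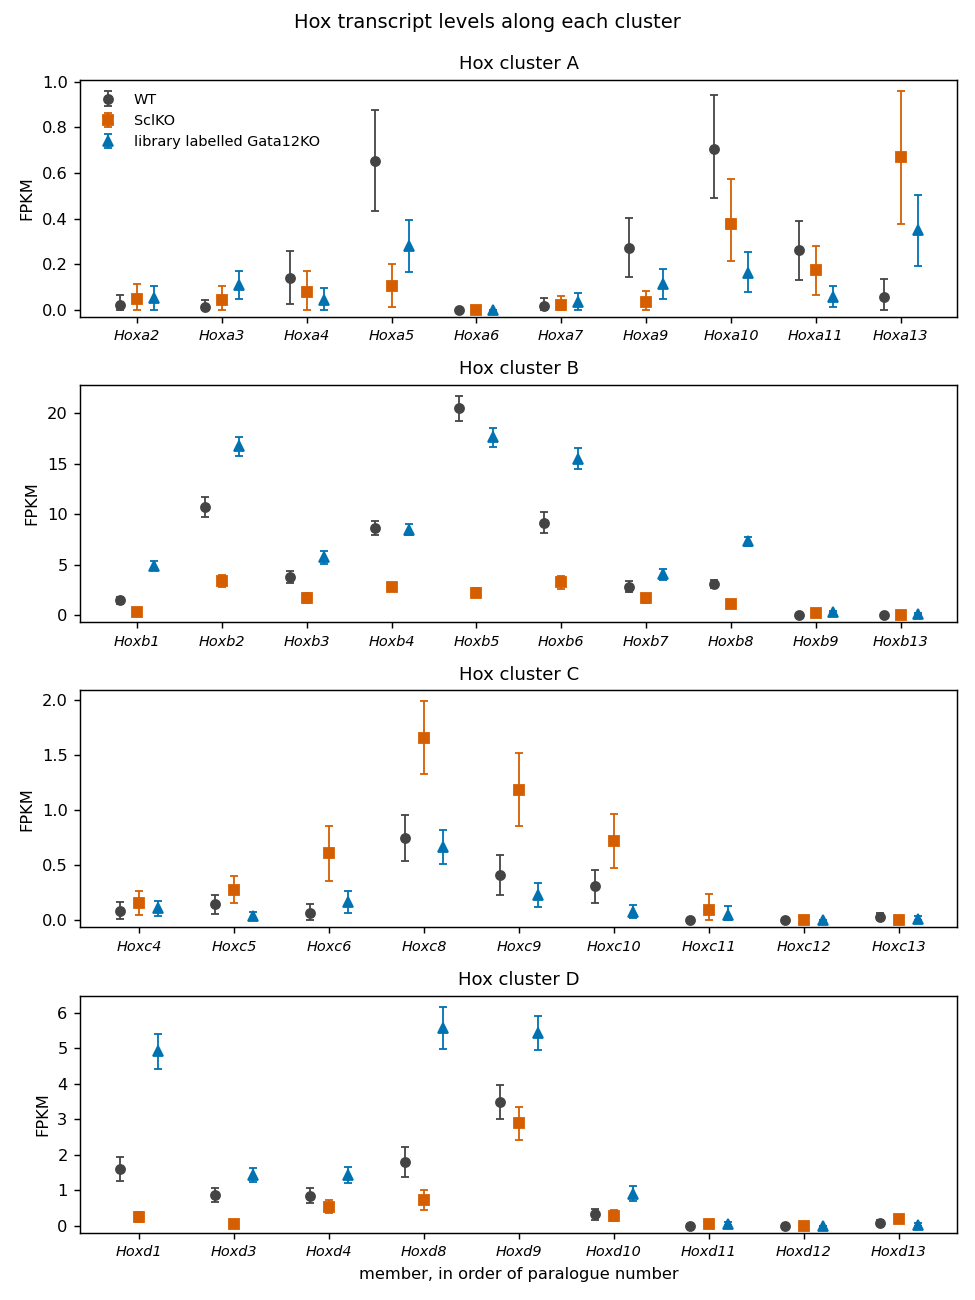
FPKM of the 38 Hox members (vertical axis, a separate scale for each cluster) in order of paralogue number, for WT (circles), SclKO (squares) and the library labelled Gata12KO (triangles), 1 library each, with bars for the deposited confidence bounds. In cluster B the SclKO squares of Hoxb1 to Hoxb8 lie below both other libraries, whereas in cluster C the SclKO squares of Hoxc6 to Hoxc10 lie above them.

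In SclKO against WT, cluster B was lower along its whole expressed length, the first genes of cluster D were lower too, and the central genes of cluster C were higher. The summed level of cluster B was 60.2 FPKM in WT (58.0 to 62.4) and 16.6 in SclKO (15.3 to 17.9), 3.62-fold lower. That of cluster D was 9.0 (8.20 to 9.81) and 4.95 (4.33 to 5.58), 1.82-fold lower, and that of cluster C 1.81 (1.46 to 2.16) and 4.72 (4.09 to 5.34), 2.60-fold higher. Cluster A had 2.14 (1.74 to 2.55) and 1.55 (1.15 to 1.96), with overlapping bounds. A sorted pool does not tell fewer cells that hold a transcript from less of it per cell.

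By the size rule, 5 of 38 members were lower in SclKO (Hoxb2, Hoxb4, Hoxb5, Hoxb6 and Hoxd1) and 0 were higher. Only the 15 members that reached 1 FPKM could be called. The rule asks for at least 1 FPKM in any library, bounds of both libraries apart, and a ratio of at least 2-fold after 1 FPKM is added to each value, which understates ratios of genes near 1 FPKM. Over all 11080 genes that reached 1 FPKM it called 4.24% lower and 2.12% higher. Bounds alone were apart for 18 of 38 members at any level (34 above 0 in either library), 13 lower and 5 higher. Over 17326 genes above 0 in either library, 23.4% were lower and 18.8% higher. The median log2 ratio of the 15 members that reached 1 FPKM was -0.82, against -0.03 for all such genes, and over all 38 members it was -0.04. With a pseudocount of 0.1 FPKM the rule called 10 members lower and 2 higher, Hoxc8 and Hoxc9, beside 6.71% and 4.29% of all genes. These 2 passed the minimum only through SclKO. Rescaled over transcripts of 300 nt or longer, Hoxd1 was no longer called.

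Hoxb5 had the lowest log2 ratio of the members with 1 FPKM added, -2.73, from 20.5 FPKM in WT and 2.23 (1.8 to 2.66) in SclKO, 9.19-fold lower. The highest Hox transcript in WT thus stood in SclKO below Hoxb2, Hoxb6, Hoxd9 and Hoxb4, with bounds apart from those of Hoxb2 and overlapping those of the other three. Its upstream neighbour Hoxb6 had 9.16 FPKM in WT and 3.27 (2.63 to 3.92) in SclKO, and its downstream neighbour Hoxb4, a gene known for expanding blood stem cells when overexpressed, had 8.61 and 2.76 (2.36 to 3.17). Both were about as far down as Hoxb2, a hindbrain segment gene, with 10.7 and 3.39 (2.81 to 3.97). These 3 ratios, 2.80-, 3.11- and 3.17-fold lower, were smaller than that of Hoxb5.

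At both ends of the expressed stretch of cluster B the differences kept the same direction. Hoxb1, an early gene that is later restricted to a single segment within the hindbrain, had 1.46 FPKM (1.14 to 1.77) in WT and 0.282 (0.137 to 0.428) in SclKO. Hoxb8, whose product can hold myeloid progenitors in an immature state, had 3.09 (2.69 to 3.49) and 1.14 (0.885 to 1.40). Hoxb7 had 2.83 (2.26 to 3.41) and 1.65 (1.18 to 2.12), the smallest ratio of the 8. Hoxb9 and Hoxb13, the most 5′ genes, stood at or near 0: Hoxb9 had 0.0503 FPKM (4 reads) in WT and 0.170 (12 reads) in SclKO with overlapping bounds, and Hoxb13 was listed at 0 in both.

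Hoxb3 has 2 RefSeq transcripts that end together but start apart, at 96184440 and 96205083 on chromosome 11, with 4 and 2 exons. The short transcript had 3.13 FPKM (2.74 to 3.52) in WT and 0.795 (0.559 to 1.03) in SclKO. The long transcript had 0.657 (0.441 to 0.873) and 0.919 (0.675 to 1.16), with overlapping bounds. In the library labelled Gata12KO they had 2.87 (2.54 to 3.20) and 2.84 (2.52 to 3.17). The share of the long transcript in the gene's FPKM was thus 17.3% in WT, 53.6% in SclKO and 49.8% in the library labelled Gata12KO. The gene's sum hides this, at 3.79, 1.71 and 5.71 FPKM. How reads shared by both transcripts were split was the authors' estimate.

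In cluster D, Hoxd1, Hoxd3 and Hoxd8 were lower in SclKO, and no member was higher with bounds apart. Hoxd1 had 1.60 FPKM (1.26 to 1.95) in WT and 0.234 (0.0928 to 0.375) in SclKO. Hoxd3, by plain ratio the member farthest below WT among those with bounds apart (16.5-fold), had 0.862 (0.661 to 1.06) and 0.0523 (0 to 0.105), the second value resting on 4 reads. Hoxd8 had 1.8 (1.37 to 2.23) and 0.721 (0.433 to 1.01). Hoxd4, which lies between them (0.840 and 0.539), and Hoxd9 on the 5′ side (3.49 and 2.88) had overlapping bounds. Hoxd9, a paralogue of Hoxb9 and Hoxc9, gave 38.7% of the cluster sum in WT and 58.2% in SclKO.

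Cluster C, whose genes pattern the trunk and tail region, was the cluster with higher values in SclKO. Hoxc8 had 0.753 FPKM (0.544 to 0.962) in WT and 1.66 (1.33 to 1.99) in SclKO, and Hoxc9 had 0.413 (0.228 to 0.597) and 1.19 (0.854 to 1.52). Below 1 FPKM, Hoxc6 had 0.0675 FPKM in WT (3 reads, bounds 0 to 0.145) and 0.609 in SclKO (24 reads, 0.360 to 0.858), and Hoxc10 had 0.311 (0.160 to 0.462) and 0.722 (0.478 to 0.966). These 4 neighbours were the members of cluster C with bounds apart, all of them higher, although none passed the size rule. Over all clusters 5 of 38 members were higher by bounds, beside 18.8% of 17326 genes above 0. Hoxc4 and Hoxc5 at one end and Hoxc11, Hoxc12 and Hoxc13 at the other had overlapping bounds, with values of 0 to 0.279 FPKM in both libraries.

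Cluster A held no member that reached 1 FPKM. Its most 5′ gene, Hoxa13, which patterns limb ends, the urogenital tract and the vessels of the allantois, had 0.0564 FPKM (2 reads, 0 to 0.136) in WT and 0.669 (21 reads, 0.377 to 0.961) in SclKO. Hoxa5 went the other way, with 0.655 (0.433 to 0.876; 35 reads) and 0.105 (5 reads, with the lower bound at 0.0111), as did Hoxa9, a factor of blood progenitors, with 0.273 (0.144 to 0.402; 18 reads) and 0.0341 (0 to 0.0823; 2 reads). Hoxa10, the highest of the cluster in WT at 0.705 (0.492 to 0.944), had 0.378 (0.213 to 0.573) in SclKO, and these bounds overlap. Exons of Hoxa11 share 525 nt with the antisense RNA Hoxa11os and those of Hoxa3 share 28 nt with Hoxaas3. Whether the counting used strand is not stated, so reads of these pairs cannot be told apart. Hoxa2, Hoxa4 and Hoxa7, like Hoxd11 of cluster D, stayed at or under 0.141 FPKM in all 3 libraries, with bounds that overlap in every comparison. Hoxa6, Hoxc12 and Hoxd12 were listed at 0 throughout.

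**Figure D2:**
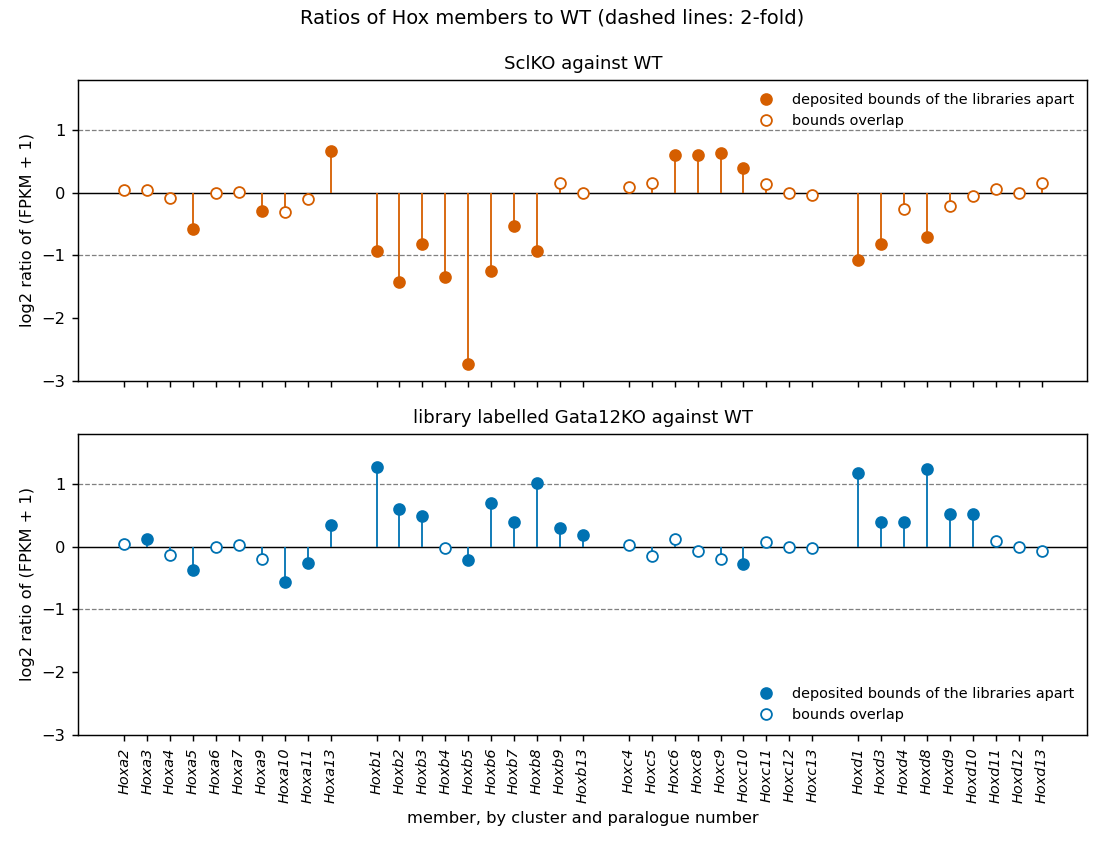
Log2 ratio of (FPKM + 1) to WT for each of the 38 members, by cluster and paralogue number, in SclKO (upper) and the library labelled Gata12KO (lower), with filled points where the deposited bounds of the libraries are apart and dashed lines at 2-fold. Hoxb5 is the lowest point in SclKO at -2.73, and Hoxb1 (1.26), Hoxd8 (1.23) and Hoxd1 (1.18) are the highest in the library labelled Gata12KO, where the small negative ratio of Hoxb5 (-0.21) turns positive after rescaling to the library sum.

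Summed by position over all 4 clusters, the SclKO library held less of the low and central numbers and about as much of the high ones. This did not hold within each cluster. Paralogues 1 to 4 (11 members) summed to 28.2 FPKM in WT (26.7 to 29.6) and 9.30 in SclKO (8.39 to 10.2), and paralogues 5 to 8 (11 members) to 39.0 (37.2 to 40.8) and 11.7 (10.6 to 12.8). Paralogues 9 to 13 (16 members) summed to 5.99 (5.35 to 6.64) and 6.84 (6.07 to 7.61), with overlapping bounds. Their share of all Hox FPKM was 8.19% in WT, 24.6% in SclKO and 7.69% in the library labelled Gata12KO. Cluster C took 2.47%, 16.9% and 1.32% in the same order. Position and cluster are not separable here, since cluster B gave most of the low and central sums and 0.0503 FPKM of the high one in WT. Within cluster D alone, the sum was 4.01-fold lower in SclKO for paralogues 1 to 4 (3.31 and 0.825 FPKM) and 2.50-fold lower for Hoxd8, while paralogues 9 to 13 had 3.90 (3.39 to 4.41) and 3.41 (2.90 to 3.91). Hoxd9 gave 89.5% of that last sum in WT and 84.6% in SclKO. Within paralogues 1 to 4 of cluster D, Hoxd4 had overlapping bounds. None of the other clusters showed this order. Paralogues 5 to 8 of cluster C were 2.63-fold higher in SclKO (0.970 and 2.55 FPKM) and its paralogues 9 to 13 2.67-fold higher (0.752 and 2.01). In cluster A, paralogues 1 to 4 had 0.176 and 0.173 FPKM, paralogues 5 to 8 had 0.673 and 0.126, and paralogues 9 to 13 had 1.30 and 1.25. In cluster B, paralogues 1 to 4 were 3.02-fold lower in SclKO and paralogues 5 to 8 were 4.29-fold lower. Its paralogues 9 to 13 had 0.0503 and 0.170 FPKM, with overlapping bounds.

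**Figure D3:**
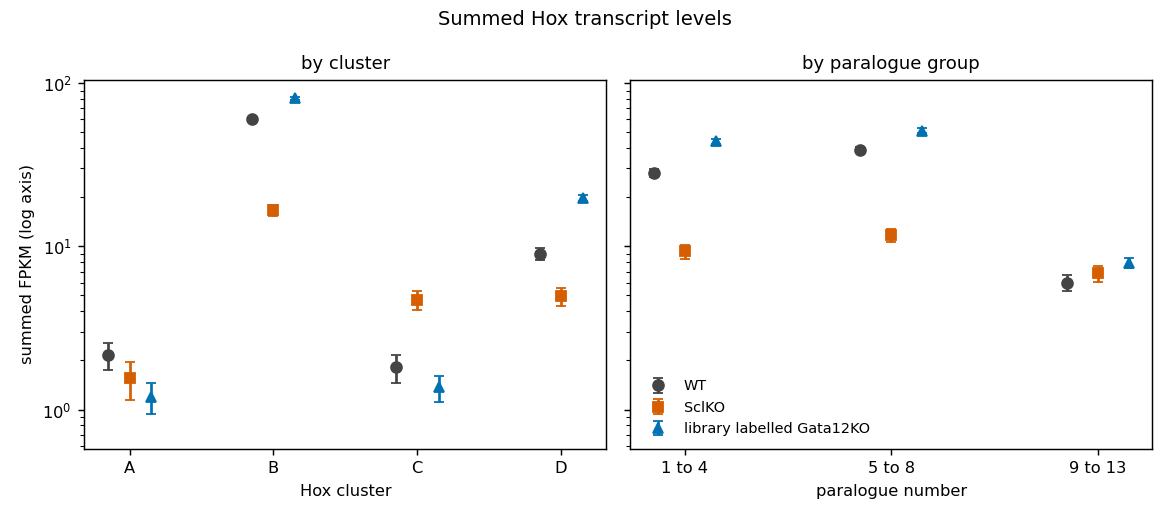
Summed FPKM (log axis) of the Hox members by cluster (left) and by paralogue number over all clusters (right), for WT (circles), SclKO (squares) and the library labelled Gata12KO (triangles), with bars for bounds combined in quadrature. SclKO is lowest for clusters B and D and highest for cluster C, and for paralogues 9 to 13 the 3 libraries lie between 5.99 and 7.93.

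In the library labelled Gata12KO against WT, members of clusters B and D were higher, and cluster A was lower at its low level. The summed level of cluster D was 19.8 FPKM (18.8 to 20.8), 2.20-fold that of WT, and that of cluster B was 80.7 (78.7 to 82.8), 1.34-fold. Cluster A had 1.20 (0.944 to 1.45), 1.79-fold lower than WT, a log2 ratio of -0.84 that became -0.15 after rescaling to the library sum. Cluster C had 1.37 (1.12 to 1.61), with bounds that overlap those of WT. The size rule called Hoxb1, Hoxb8, Hoxd1 and Hoxd8 higher, 4 of 38 members (15 at 1 FPKM or more), and 0 lower. Of the 11080 genes that reached 1 FPKM, 0.767% and 3.75% were called. Bounds were apart for 21 of 38 members (35 above 0 in either library), 16 higher and 5 lower, against 17.7% and 26.2% of 17806 genes above 0. The 16 include Hoxb13, which was listed at 0 in WT without counting error. The median log2 ratio was 0.49 over the 15 members that reached 1 FPKM, -0.08 over all such genes and 0.06 over all 38 members. Among the 15, Hoxd3 and Hoxd4 passed the minimum only through the library labelled Gata12KO. Rescaling to the library sum moved the median of all genes by 0.59, and 8 members were then called higher beside 10.4% of all genes. Bounds were then apart for 18 higher and 1 lower, against 17 and 2 when rescaled over transcripts of 300 nt or longer and 16 and 3 with the length trend removed.

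The members called higher were the paralogues 1 and 8 of clusters B and D, a set that depended on the settings. With the length trend removed Hoxb6 was called too, and rescaling to the library sum added Hoxb2, Hoxb3, Hoxb6 and Hoxd9. Without rescaling, Hoxb1 had 4.90 FPKM (4.45 to 5.35) in the library labelled Gata12KO against 1.46 in WT, 3.37-fold. Hoxd1 had 4.91 (4.43 to 5.39) against 1.60, 3.06-fold. Hoxd8 had 5.58 (4.99 to 6.17) against 1.8, 3.10-fold, and Hoxb8 had 7.30 (6.81 to 7.78) against 3.09, 2.36-fold. These 4 values lie above those of both other libraries, with bounds apart from each. Hoxb3 was 1.51-fold higher in sum, 5.71 (5.06 to 6.37) against 3.79 (3.19 to 4.39), although its highest entry alone gave a log2 ratio of -0.09. Other smaller differences in the same direction were those of Hoxb6 (15.5 FPKM, 14.5 to 16.5), Hoxb2 (16.7, 15.8 to 17.7), Hoxb7 (4.06, 3.52 to 4.60) and Hoxd9 (5.44, 4.96 to 5.91), at 1.43- to 1.69-fold.

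Hoxd3, Hoxd4 and Hoxd10 were also higher than in WT with bounds apart, at 1.43, 1.43 and 0.909 FPKM. Hoxd10, which the minimum of the size rule left out, was 2.81-fold above its WT value of 0.323 FPKM. Hoxb4 had 8.48 FPKM (7.95 to 9.01), with bounds that overlap those of WT. Hoxb5 had 17.6 (16.7 to 18.5) against 20.5, a log2 ratio of -0.21 that became 0.46 after rescaling to the library sum and 0.09 after rescaling over transcripts of 300 nt or longer. In cluster A, Hoxa5 (0.279 FPKM, 0.165 to 0.393), Hoxa10 (0.159, 0.0797 to 0.256) and Hoxa11 (0.0574, 0.0105 to 0.104) were lower than in WT. Hoxa13 was higher, at 0.348 (0.193 to 0.504; 20 reads), as were Hoxa3 at 0.109 (13 reads) and Hoxb9 at 0.286 (0.192 to 0.381). Hoxc8 and Hoxc9 had 0.669 (0.514 to 0.824) and 0.230 (0.122 to 0.339), with bounds that overlap those of WT. Hoxc10 was lower, at 0.0797 (0.0194 to 0.140; 7 reads), and Hoxb13, listed at 0 in WT and SclKO, had 0.139 (8 reads).

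Against SclKO, the library labelled Gata12KO had 10 of 38 members (15 at 1 FPKM or more) higher by the size rule and 0 lower. Of the 11080 genes that reached 1 FPKM, 3.38% and 3.75% were called. The 10 members were Hoxb1 to Hoxb6 and Hoxb8 together with Hoxd1, Hoxd3 and Hoxd8. Each of these libraries also enters a comparison with WT above, so this count adds no separate evidence. Bounds were apart for 15 higher and 6 lower members (35 above 0 in either library), beside 19.6% and 23.8% of 17607 genes above 0. The 15 include Hoxb13, listed at 0 in SclKO. The 6 lower ones were Hoxc5, Hoxc6, Hoxc8, Hoxc9, Hoxc10 and Hoxd13. The widest gaps in level were 17.6 against 2.23 FPKM for Hoxb5 and 16.7 against 3.39 for Hoxb2.

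**Figure D4:**
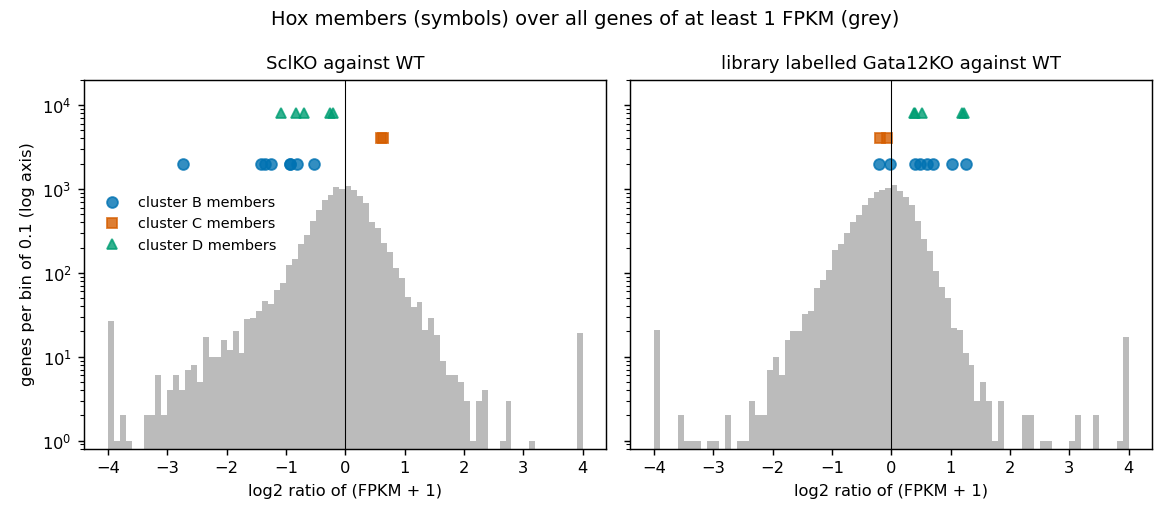
Log2 ratios of (FPKM + 1) to WT for the 11080 genes that reached 1 FPKM in any library (grey, genes per bin of 0.1 on a log axis, values beyond 4 drawn at 4) with the 15 Hox members that did so as symbols by cluster at arbitrary heights. In SclKO all symbols of clusters B and D lie left of 0 and both of cluster C lie right of it, while in the library labelled Gata12KO the 5 of cluster D and 6 of 8 of cluster B lie right of 0, the other two, Hoxb4 and Hoxb5, turning positive after rescaling to the library sum. The side of 0 was fixed by the minimum for Hoxc8 and Hoxc9 in SclKO and for Hoxd3 and Hoxd4 in the library labelled Gata12KO. They reached 1 FPKM in no other library.

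Regulators and partners of Hox genes were read from lists chosen for their role. Of 6 Cdx and ParaHox genes, Cdx2, an activator of central Hox genes, was the single member that reached 1 FPKM. It had 1.68 FPKM in WT, 16.7 in SclKO and 5.71 in the library labelled Gata12KO, higher by the size rule in both comparisons with WT. The part of Cdx2 in the Hox differences was not tested. Cdx1 and Cdx4 were listed at 0 in WT and SclKO.

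Of 9 TALE genes, whose products bind DNA together with Hox proteins, 8 reached 1 FPKM. In SclKO 1 was higher, Meis2 (3.67 FPKM in WT and 9.20), and 0 lower. In the library labelled Gata12KO 0 were called in either direction. Meis1 had 5.96 (2.25 to 12.2) in WT and 2.29 (1.88 to 2.70) there. Its log2 ratio of -1.08 was not called because the bounds overlap. Pbx2, the highest of the list, had 31.9, 32.2 and 32.5 FPKM in the 3 libraries. Transcripts of 8 of the 9 partners were thus at 1 FPKM or more in every library, while Pbx4 stayed at or under 0.327.

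Retinoic acid is a known inducer of low-numbered Hox genes. Of 10 retinoid genes, 7 reached 1 FPKM. In SclKO 2 were lower and 0 higher, and in the library labelled Gata12KO 1 was higher and 0 lower. Cyp26a1, which breaks down retinoic acid and is itself induced by it, had 18.0 FPKM in WT, 5.45 in SclKO and 43.6 in the library labelled Gata12KO. Cyp26b1 had 1.53, 0.204 and 0.692. The retinoic acid synthesis gene Aldh1a2 stayed at or under 0.199 FPKM in all 3. The part of retinoic acid in the Hox differences was not tested.

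All 16 Polycomb and Trithorax genes listed, which keep Hox clusters silent or active, reached 1 FPKM in some library, and 0 were called in either comparison with WT. Over all 11080 genes, 4.24% were lower and 2.12% higher in SclKO, and 3.75% and 0.767% in the library labelled Gata12KO. For 16 genes, 0 calls lie close to these shares. Ezh2, the Polycomb methyltransferase, had 37.1, 51.6 and 47.0 FPKM, and Kmt2a, its Trithorax counterpart, 7.43, 8.89 and 8.27. Of 14 genes that flank the clusters, 12 reached 1 FPKM. In SclKO 2 were lower and 0 higher, Skap1 beside cluster B (22.7 and 0.694) and Skap2 beside cluster A (21.4 and 7.22), which encode adaptors of blood cell signalling. In the library labelled Gata12KO Skap1 was again lower (7.21) and 0 were higher. Snx11, another gene near cluster B, had 1.63, 1.32 and 1.60 FPKM. None of the 12 noncoding entries inside the clusters reached 1 FPKM. The highest value was that of Hoxd3os1, 0.390 FPKM in WT, 0.178 in SclKO and 0.824 in the library labelled Gata12KO. The 6 miRNA hairpins among them (Mir10a, Mir10b, Mir196a-1, Mir196a-2, Mir196b and Mir615) were listed at 0 throughout, and libraries of this kind do not measure mature miRNAs.

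Markers of some other cell types differed between the libraries too. In SclKO against WT, 0 cardiac, neuroectoderm, endoderm or pluripotency genes were called, but few could be. Only 3 of 5 cardiac, 1 of 6 neuroectoderm, 2 of 6 endoderm and 2 of 4 pluripotency genes reached 1 FPKM. Over all 11080 genes that did so, 4.24% were called lower and 2.12% higher. Of 7 allantois and extraembryonic mesoderm genes, 4 were higher in SclKO, with summed levels of 105, 289 and 82.0 FPKM in WT, SclKO and the library labelled Gata12KO and 0 members at 0 in any. Hand1 alone gave 72.2, 209 and 61.7 FPKM of these sums. Of 6 mesenchyme genes, 2 were higher in SclKO, with sums of 25.1, 53.7 and 15.9 FPKM and 0 at 0. Among 7 blood genes 6 were lower in SclKO, with sums of 187, 1.16 and 30.7 FPKM, Ptprc at 0 in WT and SclKO and Gata1 and Hba-x at 0 in SclKO and in the library labelled Gata12KO, respectively. Of 7 endothelial genes 3 were lower in SclKO (Cdh5, Tie1 and Esam). Posterior and presomitic mesoderm genes summed to 5.12, 5.03 and 9.59 FPKM over 7 members, with Msgn1 at 0 in all libraries and Wnt3a at 0 in SclKO and the library labelled Gata12KO. Within this list Nkx1-2 was higher in SclKO (0.0184 FPKM in WT and 1.06). Neuroectoderm genes summed to 4.20, 4.57 and 7.04 FPKM over 6 members, with Neurog2 at 0 in all and Olig2 at 0 in SclKO. Sums for 5 cardiac, 6 endoderm and 4 pluripotency genes lay between 4.78 and 13.7 FPKM in every library, with Afp at 0 in SclKO and the library labelled Gata12KO. Against WT, the library labelled Gata12KO had 4 of 7 blood genes lower. There, 1 of 6 mesenchyme genes was lower (Col1a1), 1 of 7 allantois genes was higher (Foxf1) and 1 lower (Pitx1), 1 of 7 endothelial genes was higher (Kdr) and 1 of 4 pluripotency genes was lower (Dppa5a). The part of these cells in the Hox differences was not tested.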

How the data were processed

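RNA of sorted endothelial cells was measured in 3 libraries, 1 per group. Per the labels' protocols, total RNA was prepared with the Encore Complete RNA-Seq system of Nugen. The submitters' processing notes list the builds mm9 and hg19 and the tools Cuffdiff, Cufflinks 2.0.1 and TopHat2 2.0.4, without saying what each did. The values deposited by the authors are FPKM with lower and upper bounds, from Cufflinks per the files' source column, for 30123 RefSeq entries. Coordinates of members are as in the files. Of 29610 accessions, 29030 were named by the RefSeq table of GRCm38.p6, 173 by GENCODE M21 and 407 by neither. In the library labelled Gata12KO, 136 entries were joined by position, and 134 entries with differing symbols were left out.

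Entries were summed per symbol (bounds too). Reads were taken from the bounds, read as 2 Poisson standard deviations from the value, which need not hold for genes with several transcripts. Of entries under 50 reads whose deposited transcript fraction was near 1, 83.1% to 84.1% gave whole numbers within 0.05. Sums over genes combine half-widths in quadrature. Ratios are log2((FPKM + 1)/(FPKM + 1)). The size rule needs 1 FPKM in any library, 2-fold and separate bounds. The members and lists were chosen with earlier results of these data known. Members of at least 1 FPKM are given with values in all libraries and the others by range. Up to 4 genes of a list were to be named. Further names, and the members under 1 FPKM named with values, were chosen after their values were seen. Alternatives were other pseudocounts, minimums, scalings, removal of a length trend in 20 bins and the highest entry per symbol. Analysis used Python 3.11.15, numpy 2.4.6 and pandas 2.3.3.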

Additional observations from a re-analysis of the deposited data

How the results depend on the processing

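No paired analysis was possible because each group has 1 library, and leaving out a replicate was not possible for the same reason. No difference that passed the size rule changed sign under any alternative tried. Of 120 alternative values of counts, medians and cluster sums, 92 stayed near the reported value and 28 did not. Near means within 1.5 times for a count, within the counting interval for a cluster sum and within the span that the members' bounds give for a median. With a pseudocount of 0.1 FPKM, SclKO against WT had 10 lower and 2 higher members and a median of -1.36, and the library labelled Gata12KO had 2 lower against SclKO, beside 6.23% of all genes. With that pseudocount and no minimum, a pair of settings chosen after seeing the data, SclKO had 12 lower and 4 higher members (median -0.36) against WT, beside 6.08% and 3.77% of all genes. The library labelled Gata12KO then had 8 higher and 3 lower against WT, beside 2.33% and 5.57%, and 6 lower against SclKO, beside 5.41%. With no minimum alone the medians were -0.0801 and 0.0854, since unexpressed members enter. Rescaling to the library sum moved the median of all genes by -0.10 in SclKO and 0.59 in the library labelled Gata12KO, and over transcripts of 300 nt or longer by 0.12 and 0.26. In SclKO the cluster B log2 ratio of -1.86 became -1.98 and -1.71 under these. In the library labelled Gata12KO, rescaling to the library sum gave 8 higher members, a median of 1.08 and cluster ratios of -0.15 for A (from -0.84), 1.12 for B (from 0.42), 0.29 for C (from -0.41) and 1.83 for D (from 1.14). The other rescaling gave 0.73 for B and 1.45 for D, removing the length trend 0.65 and 1.36, and median ratios 0.52 for B. Without Hoxb5 cluster B had -1.47 in SclKO and 0.67 in the library labelled Gata12KO, and without Hoxd8 cluster D had 0.98 there, both chosen after seeing the data. For Hoxb3, the highest entry alone gave -0.09 against 0.49 for the sum in the library labelled Gata12KO. Depth limits members under 1 FPKM, many of which rest on fewer than 50 reads.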
